A study of Mus musculus with 6 samples.

Results

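The circadian clock genes described here are 10 transcripts of the clock and its direct outputs: Dbp, Tef and Hlf, Nr1d1 and Nr1d2, Ciart, Per1, Per2 and Per3, and Arntl, which encodes BMAL1. Every probe set that the platform annotation gives to 1 of these symbols alone was taken, which made 23 probe sets among 34945 with a single symbol, and 10 genes among 18193. The genes were chosen by function and selected on the measured difference between the genotypes in these same arrays. Differences between genotypes for the 10 genes are therefore given as a description. Where a probe set of theirs is said to be called, this says only that it passed the threshold of the fit over all probe sets, and nothing is supported with it.

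The mice were HtrA2 knockout animals, which lack a protease found between the mitochondrial membranes, and HtrA2 wild type (WT) littermates. Cortex was taken at postnatal day 29, and total RNA was hybridised to Affymetrix arrays, 3 for the knockout and 3 for WT. The submitters ask which transcripts differ in a region they describe as free of neuronal loss. The knockout allele, the number of animals behind each array, the hour of dissection and the light cycle are not stated in the labels, and the standard errors therefore measure the spread between these samples. Levels are the deposited RMA values, read as log2. Differences are knockout minus WT with the standard error (SE) of limma's fit. That fit draws the variance of each probe set toward the variance of all, so the SE is not from its own spread alone. Other errors are standard deviations (SD), with n = 3 in each group.

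In the mammalian clock, BMAL1 and CLOCK bind E-box sequences and switch on the Period and Cryptochrome genes, whose proteins then repress BMAL1 and CLOCK. BMAL1 and CLOCK also drive Nr1d1 and Nr1d2, which encode the REV-ERB repressors of Arntl, and Ciart, which encodes a further repressor of BMAL1. Dbp, Tef and Hlf encode the PAR bZIP transcription factors, which carry the rhythm to D-box genes, and mice without any of these factors develop seizures. In forebrain the clock runs in neurons and glia, and Per1 and Per2 can also be induced through cyclic AMP response elements by neuronal activity, and by glucocorticoids.

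Promoter stretches from RefSeq (GRCm38.p6) show which of these elements sit next to the start sites of the genes. Windows of 250 bases before to 50 bases after a start site were matched for 9 of the 10 genes, all but Per2, in 12 windows, because Tef, Per1 and Arntl each have 2 start sites. The stretches below hold the matches to an E-box (CACGTG), a D-box (TTATGTAA, TTACGTAA, TTATGCAA or TTACGCAA), a cyclic AMP response element (TGACGTCA) or the core of a ROR element (TAGGTCA or TGGGTCA), searched on both strands. The matched letters are in capitals, and each stretch reads 5′ to 3′ on the strand of the gene.
Ciart, chr3:95882252-95882359, minus strand, E-box: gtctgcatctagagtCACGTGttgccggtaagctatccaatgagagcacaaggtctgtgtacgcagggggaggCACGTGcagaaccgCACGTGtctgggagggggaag
Tef start 1, chr15:81802531-81802566, plus strand, E-box: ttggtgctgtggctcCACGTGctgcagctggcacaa
Tef start 2, chr15:81811261-81811296, plus strand, E-box: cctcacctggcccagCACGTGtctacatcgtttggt
Per1 start 1, chr11:69098768-69098803, plus strand, E-box: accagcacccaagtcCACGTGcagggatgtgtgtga
Per1 start 1, chr11:69098910-69098947, plus strand, D-box: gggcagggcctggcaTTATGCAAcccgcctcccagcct
Per3, chr4:151044801-151044885, minus strand, D-box: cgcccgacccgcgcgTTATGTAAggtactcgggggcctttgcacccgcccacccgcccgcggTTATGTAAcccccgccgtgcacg
Hlf, chr11:90390918-90390941, minus strand, cyclic AMP response element: gcgcggtgcgggcccTGACGTCAc
Arntl start 2, chr7:113207531-113207557, plus strand, ROR element core: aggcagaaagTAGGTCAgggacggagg

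Ciart held 3 E-boxes, beginning 116, 58 and 44 bases before its start site. Of all 32851 promoter windows in the table, 7.15% held at least 1 E-box and 0.0883% held 3 or more. Per3 held 2 D-boxes, 205 and 158 bases before its start, where 1.94% of all windows held at least 1 and 0.0639% held 2 or more. The cyclic AMP response element of Hlf began 9 bases before the start, and 1.79% of all windows held one. The shorter string TGACG, which the full element contains, was also found at both Per1 starts and in 20.8% of all windows. The ROR element core of Arntl began 30 bases after its second start, and 6.45% of all windows held one. The windows of Dbp, Nr1d1 and Nr1d2 held none of these strings, which says only that the letters are not within this window.

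**Figure D1:**
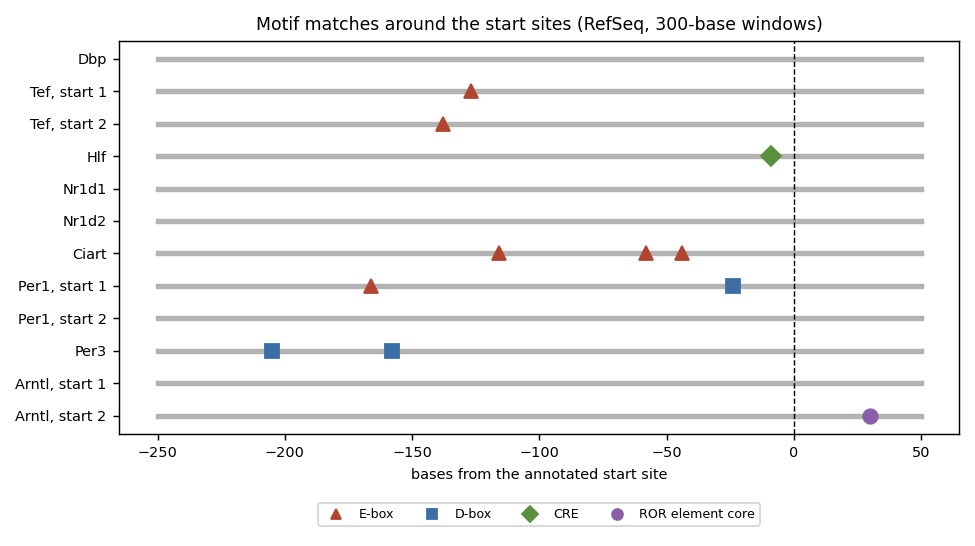
Position of each motif match (x axis, bases from the annotated start site) in the 12 promoter windows of 9 clock genes (grey bars, 250 bases before to 50 after the start). The 3 E-boxes of Ciart lie between 116 and 44 bases before its start, and the 2 D-boxes of Per3 lie 205 and 158 bases before its start.

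The 10 genes differed among themselves. Dbp, Hlf, Ciart and Nr1d1 were higher in every knockout array than in any WT array. So were Tef and Nr1d2 at their brightest probe sets. Per1, Per2, the brightest Per3 probe set and Arntl overlapped between the genotypes. In the fit over all 45037 probe sets (limma, Benjamini-Hochberg adjusted p under 0.05), 4 of the 10 genes had a probe set called as higher in the knockout and 0 as lower, where 3.30% of all genes had a call in either direction, 1.64% had one as higher and 1.67% had one as lower. At an unadjusted p under 0.05, 7 of the 10 were higher and 0 lower, where 14.4% of all genes had such a probe set as higher and 13.7% as lower. Because the genes were proposed from this contrast, nothing is read from these counts. Over the brightest probe set of each gene the median difference was 0.32, beside 0.018 over all named genes. In whole cortex, fewer cells of a type and less RNA per cell cannot be told apart. WT replicate 2 stood apart from the other arrays in Ttr, a marker of choroid plexus whose values are given with the other markers. Without that array the differences were 0.99 and 0.91 at the Dbp probe sets, 1.14 for Ciart, 0.65 for Nr1d1 and 0.38 for Tef, and of these the Dbp probe sets kept their call.

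**Figure D2:**
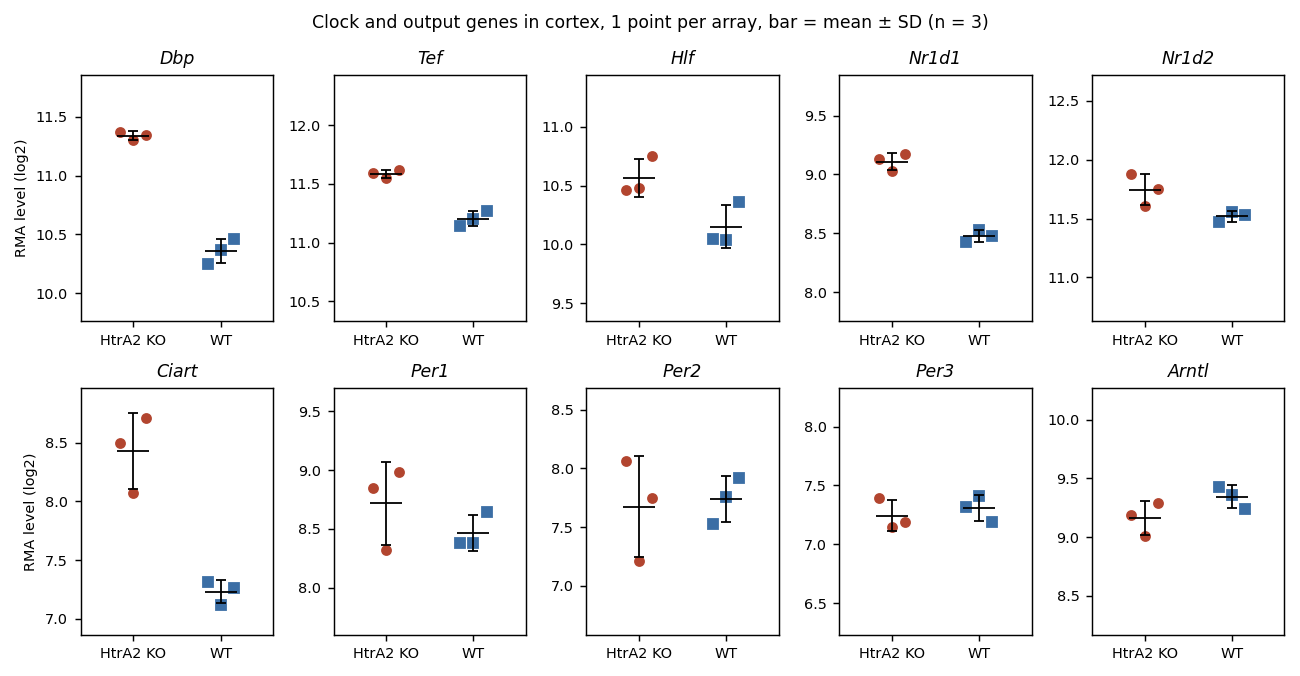
RMA level (log2, y axis) of the brightest probe set of each of the 10 clock genes, with 1 point per array, knockout left and WT right, and the mean ± SD as a bar (n = 3 each). The y axes span the same range of log2 units. The genotypes stand apart for Dbp, Tef, Hlf, Nr1d1, Nr1d2 and Ciart and overlap for Per1, Per2, Per3 and Arntl.

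Of the PAR bZIP output factors, Dbp differed most. Its brighter probe set, 1438211_s_at, read 11.37, 11.30 and 11.35 in knockout replicates 1 to 3, against 10.25, 10.37 and 10.46 in WT replicates 1 to 3. The second, 1418174_at, read 10.13, 10.12 and 10.01 in the knockout arrays, against 9.18, 9.27 and 9.17 in the WT arrays. The genotypes did not overlap at either probe set, and each group was tight, with a largest SD of 0.103. The differences were 0.98 ± 0.08 (SE, 1.97-fold) and 0.88 ± 0.07 (1.84-fold). Both Dbp probe sets kept their call in all 6 omissions of 1 array.

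Tef, the second PAR bZIP factor, depended on the probe set. At 1424175_at it read 11.59, 11.55 and 11.62 in the knockout, against 11.14, 11.20 and 11.27 in WT. The knockout arrays were all above the WT arrays there, by 0.38 ± 0.07 (1.30-fold). The other probe sets overlapped between the genotypes, with differences of 0.12 ± 0.17 at 1450184_s_at and -0.06 ± 0.09 at the dim 1438033_at. The call at 1424175_at was kept in 1 of 6 omissions, the one without knockout replicate 2.

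Hlf, the third factor, was higher in every knockout array at both of its probe sets without a call. At 1434735_at the levels were 10.27, 10.32 and 10.50 in the knockout, against 9.93, 9.68 and 10.02 in WT. At 1434736_at they were 10.46, 10.48 and 10.75 in the knockout, against 10.05, 10.04 and 10.36 in WT. Replicate 3 was the highest array of both genotypes. The differences were 0.49 ± 0.11 and 0.41 ± 0.12 (1.40-fold and 1.33-fold).

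The REV-ERB genes parted in size. Nr1d1, which encodes REV-ERBα and has a single probe set (1426464_at), read 9.13, 9.03 and 9.17 in the knockout, against 8.43, 8.53 and 8.48 in WT. All knockout arrays were above all WT arrays, by 0.63 ± 0.07 (1.55-fold). This call was kept in 2 of 6 omissions, those without knockout replicates 1 or 2. Nr1d2, which encodes the paralog REV-ERBβ, read 11.88, 11.61 and 11.75 in the knockout, against 11.47, 11.56 and 11.53 in WT at 1416958_at. The genotypes did not overlap there, but the lowest knockout array lay close to the highest WT array, and the difference was 0.23 ± 0.09 with no call. At 1416959_at the genotypes overlapped, with a difference of 0.11 ± 0.13.

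Ciart, the BMAL1 repressor whose promoter carries the E-box cluster shown above, had the largest difference of the 10 genes. It read 8.50, 8.07 and 8.71 in the knockout, against 7.31, 7.12 and 7.26 in WT at its single probe set, 1435188_at. The lowest knockout array, replicate 2, was still above every WT array. The difference was 1.20 ± 0.15 (2.30-fold), and the knockout arrays were more spread (SD 0.327) than the WT arrays (SD 0.0981). The call was kept in 2 of 6 omissions, without knockout replicates 1 or 2, and the difference lay between 1.06 and 1.38 over the 6.

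The Period genes, which encode the main repressors of BMAL1 and CLOCK, had no call at any of 10 probe sets. Per1 read 8.85, 8.32 and 8.98 in the knockout, against 8.38, 8.38 and 8.64 in WT at its single probe set, 1449851_at. Knockout replicates 1 and 3 were above all WT arrays, and replicate 2 was below them. The difference was 0.25 ± 0.17, and without knockout replicate 2 it was 0.45 and called.

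Per2 at its brightest probe set, 1417602_at, read 8.06, 7.21 and 7.75 in the knockout, against 7.53, 7.76 and 7.92 in WT. The arrays were intermixed, the knockout had both the highest and the lowest, and the difference was -0.06 ± 0.20. Its sign rested on single arrays, between -0.26 and 0.17 when 1 array was left out. The other Per2 probe sets, 1417603_at and the dim 1457350_at, overlapped and differed by 0.05 ± 0.11 and 0.14 ± 0.11.

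Per3 has 6 probe sets, of which 5 lay below the median brightness of all probe sets (6.42), where RMA compresses differences. The brightest, 1421087_at, read 7.39, 7.15 and 7.19 in the knockout, against 7.32, 7.41 and 7.19 in WT. These overlapped, with a difference of -0.06 ± 0.10. The largest Per3 difference, 0.51 ± 0.15, was at the dim 1458176_at, with 6.08, 6.07 and 6.47 in the knockout, against 5.93, 5.70 and 5.47 in WT. At the dim 1441445_at the difference was 0.44 ± 0.15 with no overlap, and it was called without knockout replicate 1. The genotypes also did not overlap at 1458176_at or at the dim 1442243_at, where the difference was 0.12 ± 0.07. They overlapped at the dim 1421086_at (-0.03 ± 0.12) and 1460662_at (0.06 ± 0.13).

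Arntl, the activator that REV-ERB proteins repress, read 9.19, 9.01 and 9.29 in the knockout, against 9.43, 9.36 and 9.24 in WT at 1425099_a_at. Knockout replicate 3 lay within the WT range and the other knockout arrays below it, and the difference was -0.18 ± 0.10. At the dim 1457740_at it was 0.03 ± 0.08.

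**Figure D3:**
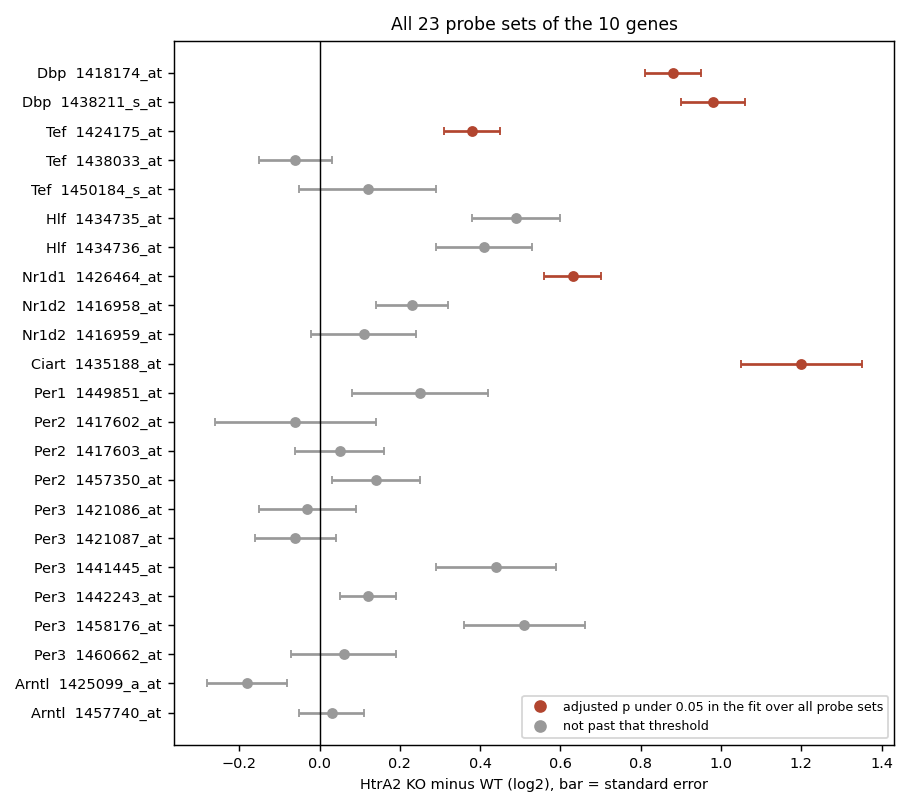
Difference between knockout and WT (x axis, log2, with the SE as a bar) at all 23 probe sets of the 10 clock genes. The 5 red points, both Dbp probe sets and 1 each of Tef, Nr1d1 and Ciart, passed an adjusted p of 0.05 in the fit over all probe sets. The 10 Period and 2 Arntl probe sets are grey and lie between -0.18 and 0.51.

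Counted by probe set, 5 of 23 were called, all as higher, where 1.77% of all probe sets were called. The genotypes did not overlap at 11 of the 23, all of them higher in the knockout, beside 23.2% of all probe sets with no overlap and 11.6% with no overlap and higher. The count of 5 was 2, both of Dbp, without any one of the WT arrays or without knockout replicate 3. It was 5 without knockout replicate 1, where Tef lost its call and Per3 gained one at the dim 1441445_at. Without knockout replicate 2 it was 6, where Per1 gained a call. Over all probe sets the count of calls, 796 with all arrays, moved in every omission of 1 array. It lay between 65 without WT replicate 2 and 3037 without knockout replicate 2.

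The 10 genes differed in how much their replicates varied within groups, a spread that also enters the calls. The pooled within-group SD had a median of 0.153 over the 23 probe sets, beside 0.118 over all probe sets. It was 0.0769 and 0.0610 at the Dbp probe sets and 0.0606 for Nr1d1, and it was 0.334 at the brightest Per2 probe set, 0.270 for Per1 and 0.241 for Ciart. At these last genes knockout replicate 2 was the lowest knockout array, with deviations from the WT mean of 0.84 for Ciart, -0.15 for Per1 and -0.52 for Per2. Those of knockout replicates 1 and 3 were 1.27 and 1.48 for Ciart, 0.38 and 0.51 for Per1, and 0.33 and 0.01 for Per2. Dbp was even across the knockout arrays, at 1.01, 0.94 and 0.99.

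**Figure D4:**
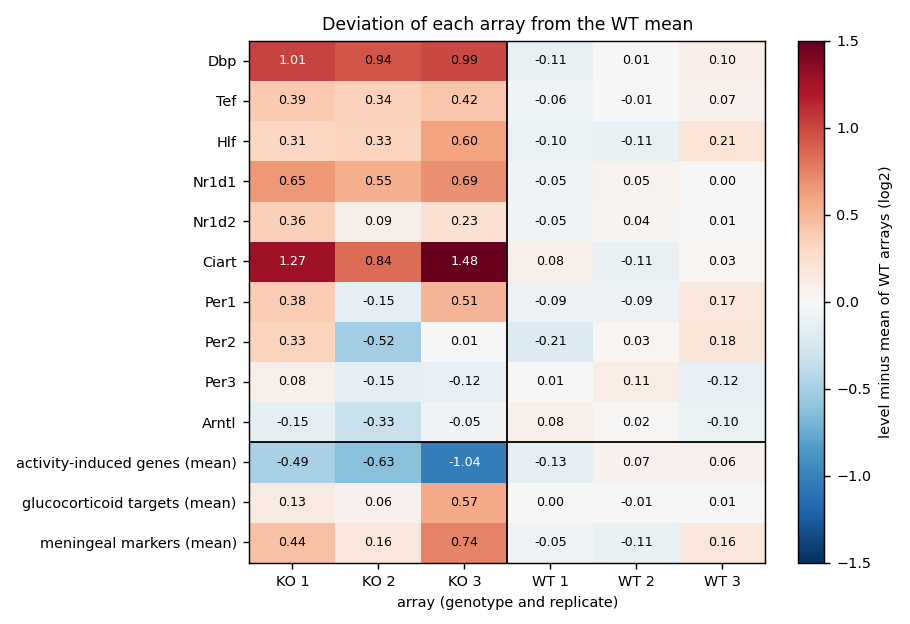
Deviation of each array (columns, genotype and replicate) from the mean of the WT arrays on the log2 scale, for the brightest probe set of the 10 clock genes (upper rows) and for the mean of 3 other gene lists (lower rows). Dbp is 0.94 to 1.01 above the WT mean in all knockout arrays, whereas Per1 and Per2 are below it in knockout replicate 2.

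The other parts of the clock had 1 gene with a call, where 3.30% of all genes had a call in either direction. Their list was chosen with earlier results of these data known, so its counts are a description. Of 21 further clock genes 19 were measured, at 55 probe sets, and 1 was called: Rorb, an orphan nuclear receptor that binds ROR elements and also marks neurons of a cortical layer, fell by 0.59 ± 0.09 at 1 of its 3 probe sets (limma adjusted p = 0.0238, range 0.0072 to 0.137 over the alternatives). It read 8.65, 8.39 and 8.52 in the knockout there, against 9.15, 9.03 and 9.13 in WT, and its other probe sets differed by -0.42 ± 0.13 and -0.37 ± 0.13. The call was lost without any one WT array or without knockout replicate 3. The median difference over the 19 genes was 0.08. No gene was called as higher by limma. At an unadjusted p under 0.05, 5 were higher and 2 lower, where 14.4% of all genes were higher and 13.7% lower.

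Some clock genes are named here for their role, after their values were seen. Clock, the partner of BMAL1, differed by -0.08 ± 0.09 at its brightest probe set, and Npas2, its forebrain paralog, by 0.26 ± 0.13. Among the repressors, Cry2 differed by 0.24 ± 0.08. Cry1 read 8.12, 7.39 and 8.55 in the knockout, against 7.49, 7.76 and 7.66 in WT. As for Per1, knockout replicate 2 was below the WT arrays and the other knockout arrays above them, and the difference was 0.38 ± 0.25. Nfil3, a repressor at D-boxes that opposes the PAR bZIP factors, differed by -0.19 ± 0.10. Tipin, the partner of Timeless in replication forks, differed by 0.44 ± 0.09, just short of the threshold (limma adjusted p = 0.0582).

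Genes with daily rhythms in many tissues were counted in the same way. This list too was chosen with earlier results of these data known, so its counts are a description. Bhlhe40 and Npas2 of this list are also among the further clock genes, and Tsc22d3 and Klf9 are also among the glucocorticoid targets below. Of 13 listed 12 were measured, and 2 rose and 0 fell, where 1.64% of all genes had a call as higher and 1.67% as lower. Usp2, a ubiquitin protease with a strong daily rhythm, read 10.22, 10.25 and 10.45 in the knockout, against 9.87, 9.75 and 9.65 in WT. It rose by 0.55 ± 0.09 (1.46-fold, limma adjusted p = 0.0355, range 0.00853 to 0.181), and its second probe set differed by 0.40 ± 0.09. Tspan4, a tetraspanin membrane protein, read 8.75, 8.64 and 8.85 in the knockout, against 8.07, 8.21 and 8.26 in WT. It rose by 0.57 ± 0.09 (1.48-fold, limma adjusted p = 0.0267, range 0.00433 to 0.145). The 2 calls were kept only without knockout replicate 2 among the 6 omissions, so the count was 0 in each of the other 5. Also chosen for their role after their values were seen, Wee1, a cell cycle kinase driven by the clock in liver, differed by -0.17 ± 0.08, and Pdxk, a pyridoxal kinase regulated by PAR bZIP factors, by 0.28 ± 0.13. The median over the 12 genes was 0.11. At an unadjusted p under 0.05, 2 were higher and 1 lower, near the 14.4% of all genes that were higher and the 13.7% that were lower.

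**Figure D5:**
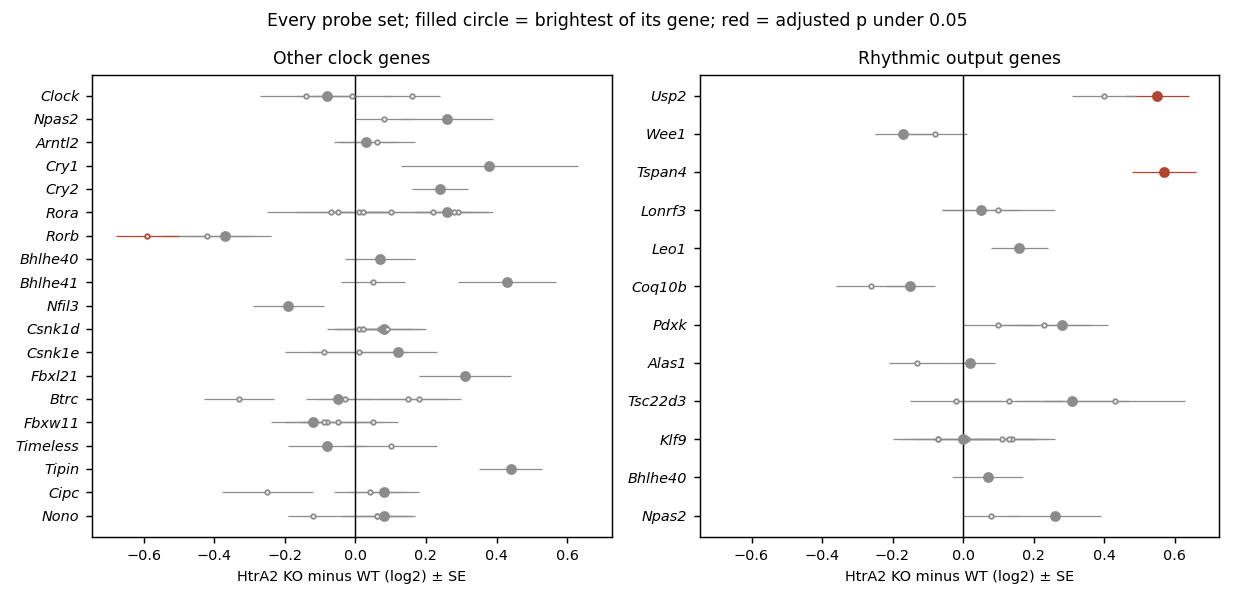
Difference between knockout and WT (x axis, log2 ± SE) at every probe set of 19 further clock genes (left) and 12 rhythmic output genes (right), with the brightest probe set of each gene as a large filled circle. Red marks an adjusted p under 0.05: Rorb at -0.59, Usp2 at 0.55 and Tspan4 at 0.57.

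Genes that share inducers with the Period genes are set beside them here. These lists too were chosen with earlier results of these data known, so their counts are a description. Of 22 activity-induced genes 8 fell and 0 rose by limma, with a median of -0.64. At an unadjusted p under 0.05, 17 were lower and 1 higher. Over all genes, 1.64% had a call as higher and 1.67% as lower, and unadjusted these shares were 14.4% and 13.7%. The 8 called genes include Crem, which encodes repressors at cyclic AMP response elements. Crem read 6.68, 6.40 and 6.32 in the knockout, against 7.15, 6.97 and 7.19 in WT at 1 of its 4 probe sets, and fell by 0.64 ± 0.11 there (limma adjusted p = 0.0376, range 0.0175 to 0.180). The mean deviation of the list was -0.49, -0.63 and -1.04 in knockout replicates 1 to 3, against -0.13 to 0.07 in WT. Without any one WT array or without knockout replicate 3 the count was 3. The other genes called are Arc, Bdnf, Egr4, Homer1, Nptx2, Nr4a1 and Ptgs2.

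Of 14 glucocorticoid targets, 0 were called by limma, with a median of 0.25. At an unadjusted p under 0.05, 3 were higher and 0 lower, where 14.4% of all genes were higher and 13.7% lower. The list lay 0.13, 0.06 and 0.57 above the WT mean in knockout replicates 1 to 3, on average over its genes, against -0.01 to 0.01 in WT. Fkbp5, a cochaperone that glucocorticoids induce, differed by 0.59 ± 0.16 (limma adjusted p = 0.119). Of the 10 clock genes, Per1 (deviations from the WT mean of 0.38, -0.15 and 0.51 in knockout replicates 1 to 3) and Ciart (1.27, 0.84 and 1.48) were, like this list, lowest in replicate 2 and highest in replicate 3, and so were Nr1d1 (0.65, 0.55 and 0.69) and Tef (0.39, 0.34 and 0.42) over a narrower range. Hlf (0.31, 0.33 and 0.60) was also highest in replicate 3, while Dbp (1.01, 0.94 and 0.99), Nr1d2 (0.36, 0.09 and 0.23) and Per2 (0.33, -0.52 and 0.01) were lowest in replicate 2 and highest in replicate 1. Per3 (0.08, -0.15 and -0.12) was also in that order, and Arntl (-0.15, -0.33 and -0.05) was in the order of the list. That order rests on 3 arrays, and knockout replicate 2 had the lowest array weight in limma (0.25). The shapes also differed, since replicates 1 and 2 lay close together for the list (0.13 and 0.06) but not for Per1 (0.38 and -0.15). The order was not particular to glucocorticoid targets. It was also the order of the meningeal markers (0.44, 0.16 and 0.74 on average in knockout replicates 1 to 3). The further clock genes (0.14, -0.02 and 0.17) and the rhythmic output genes (0.17, 0.03 and 0.29) had it too, while the activity-induced genes were lowest in replicate 3. The part of either inducer in the clock gene levels was not tested.

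The pattern most like that of Dbp was sought by Pearson's r over the 6 arrays with its brightest probe set. Candidates were single-symbol probe sets above the median brightness, without those of the 10 genes. The 5 most alike genes were Tprgl (r = 0.9994), Slc7a3, a cationic amino acid transporter (r = 0.9993), Eif3d, a translation initiation factor subunit (r = 0.9986), Arih2, a ubiquitin ligase (r = 0.9982), and Nat9 (r = 0.9979). The 5 most inverse were Homer1 at 1439662_at (r = -0.9988), Camk2n1, an inhibitor of CaM kinase II (r = -0.9987), Tpi1, a glycolytic enzyme (r = -0.9986), Pdp1 (r = -0.9983) and Myl12b (r = -0.9977). All of these follow the split between the genotypes, which the 6 arrays share, and no clock gene outside the 10 was among them. Pearson's r takes no account of the size of a difference. Slc7a3 differed by 2.25 ± 0.12, but Tpi1 by -0.12 ± 0.07 and Myl12b by -0.16 ± 0.07. At these probe sets Slc7a3, Arih2, Nat9, Camk2n1 and Pdp1 were called, and Tprgl, Eif3d, Homer1, Tpi1 and Myl12b were not.

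Among facts of the whole series, Htra2 fell by 2.27 ± 0.17 at 1 probe set (limma adjusted p = 0.00227) and rose by 1.11 ± 0.08 at the other (limma adjusted p = 0.00169). The labels do not say where these probes lie in the targeted gene. All 7 measured markers of cortical excitatory neurons lay above the median brightness, beside 4 of 5 for striatum, 4 of 5 for hippocampus, 3 of 5 for thalamus, 2 of 7 for suprachiasmatic nucleus and hypothalamus, and 1 of 5 for cerebellum, so brightness alone did not set cortex apart from striatum, hippocampus or thalamus. Knockout replicate 2 had the lowest array weight in limma (0.250, the others 0.889 to 2.62).

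Markers of some cell types differed between the genotypes, and RMA values have no 0 at which a marker could be called absent. These lists too were chosen with earlier results of these data known. For the counts below, 1.64% of all genes had a call as higher and 1.67% as lower. At an unadjusted p under 0.05 these shares were 14.4% and 13.7%. The 8 meningeal markers had 0 calls by limma, with 5 higher and 0 lower at an unadjusted p under 0.05. Their summed linear level was 19038 to 23374 in the knockout, against 15140 to 17956 in WT, and on average they lay 0.44, 0.16 and 0.74 above the WT mean in knockout replicates 1 to 3. Of 7 microglial markers 3 fell (Itgam, P2ry12 and Tmem119) and 0 rose by limma (5 lower and 0 higher at an unadjusted p under 0.05), and their summed level was 4979 to 5356 in the knockout, against 5832 to 6554 in WT. Of 5 oligodendrocyte progenitor markers 2 fell (Gpr17 and Olig2) and 0 rose (4 lower and 0 higher unadjusted), with sums of 5205 to 5519 in the knockout, against 6989 to 7437 in WT. Of 8 general neuron markers 1 fell (Nefm) and 0 rose (5 lower and 0 higher unadjusted), with sums of 59159 to 60919 in the knockout, against 65600 to 66034 in WT. Astrocyte markers, 8 in all, had 1 gene that rose (Gfap) and 2 that fell (Aqp4 and S100b). Of 6 oligodendrocyte markers measured 1 fell (Ugt8a) and 0 rose (5 lower and 0 higher unadjusted). Their sums were 32968 to 35464 in the knockout, against 37266 to 41649 in WT. Neurod6 of cortical excitatory neurons and Alas2 of blood also fell. Markers of interneurons, endothelium, striatum, thalamus, cerebellum, and suprachiasmatic nucleus and hypothalamus had 0 calls. Thalamic sums were 2358 to 2444 in the knockout, against 1806 to 2074 in WT (2 higher and 0 lower unadjusted). Unadjusted, 2 interneuron markers were lower and 2 endothelial markers higher. Of 5 hippocampal markers Lct fell, but the median of the list was 0.38, 3 genes were higher and 1 lower at an unadjusted p under 0.05, and the summed level was 2581 to 3328 in the knockout, against 1865 to 2349 in WT. Of 5 choroid plexus markers 0 were called by limma and 1, Ttr, was lower at an unadjusted p under 0.05. Ttr, a thyroid hormone carrier, read 7.34, 7.61 and 7.32 in knockout replicates 1 to 3 at its brightest probe set, against 8.46, 12.86 and 8.62 in WT replicates 1 to 3. All WT arrays were above all knockout arrays there, and WT replicate 2 was far above the rest. Over its 4 probe sets the difference lay between -4.48 and -2.56 (5.88-fold to 22.34-fold higher in WT), and the summed level of the list was 488 to 528 in the knockout, against 624 to 7901 in WT. The part of these lists in the clock gene differences was not tested.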

How the data were processed

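Cortex RNA of 3 HtrA2 knockout and 3 WT samples was measured on 1 array each. The deposited log2 values were made by the authors with RMA, per the submitters' processing notes, which give no version. RMA corrects background, quantile normalizes and summarizes each probe set, so a shift common to most genes is removed and dim differences are compressed. The range of the values gave the log base as 2. Arrays give no counts, so their number limits the precision.

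Of 45101 probe sets, 64 controls were left out and 45037 tested with limma 3.58.1 (lmFit, eBayes, two-sided, genotype as the only term) in R 4.3.3, with Benjamini-Hochberg adjustment over all. Calls are at an adjusted p under 0.05, and a gene is called if 1 probe set is. Of 34945 single-symbol probe sets, 34741 matched the RefSeq table of GRCm38.p6 by gene identifier, which was used for names. Promoter windows come from RefSeq, and coordinates are 1-based. The 10 genes and all lists were chosen with earlier results of these data known. Named are all probe sets of the 10 genes, genes of other lists that passed or, where none passed, up to 4 by smallest p, and the 5 genes most like and most inverse to Dbp; exceptions are marked in the text. The fit was tested on simulated data. Alternatives were a replicate block, a brightness filter, array weights, median centring, robust moderation with limma-trend, a second quantile normalization, a looser threshold, 1 probe set per gene and omission of each array in turn. Omission of both arrays numbered 2 was chosen after seeing the data. A comparison of protein sequences was not made here.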

Additional observations from a re-analysis of the deposited data

How the results depend on the processing

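Differences of the 10 genes kept their sign at every called probe set under the alternatives run, but calls depended on the setting. The count of called clock probe sets, 5, was 3 with replicate number as a block (both Dbp probe sets and Ciart) and 8 with array weights, and 2 to 6 when 1 array was left out. All probe sets called, 796, were 154 with the replicate block, 1757 without dim probe sets, 1770 with limma-trend and robust moderation, 4205 with array weights, 2035 at an adjusted p under 0.1, 314 without both replicates numbered 2, and 65 to 3037 without 1 array. Other clock genes called, 1, were 0 with the replicate block and without both replicates 2, 2 without dim probe sets, with limma-trend, after further quantile normalization and at the looser threshold, 5 with array weights, and 0 to 6 without 1 array. Rhythmic output genes called, 2, were 0 with the replicate block and without both replicates 2, and 0 to 3 without 1 array. Activity-induced genes called, 8, were 5 with the replicate block, 13 with array weights, 4 without both replicates 2 and 3 to 11 without 1 array. Glucocorticoid targets called, 0, were 1 with array weights and 0 without any 1 array. With 1 probe set per gene the other clock gene called was Tipin, since the brightest Rorb probe set is not the one that passed. Tef lost its call with median centring. Hlf gained a call at 1434735_at without dim probe sets, with limma-trend and robust moderation, with array weights and at the looser threshold. With array weights Hlf was also called at 1434736_at and Per3 at 1458176_at. Replicate numbers are not said to pair animals. Deviations of same-numbered arrays from their group means correlated at -0.196, -0.0405 and -0.169, and no knockout array correlated best with its own number. Deviations within a group cancel by construction, so these values cannot decide whether the arrays were paired. Fewer samples are fitted when arrays are left out; the cause of the other changes was not tested. Brightness limits 8 of the 23 probe sets, which lie below the median of all.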
